A study of Homo sapiens with 2 samples.

Results

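The cytochrome P450 genes were examined in HepG2 cells, an established line from a human liver tumour (hepatoma), with and without silica nanoparticles. The treated cells received amorphous silica nanoparticles (SiO2-NP) at 100 mg/L in MEM medium for 24 h, and the other cells are labelled only as control cells of the same line; the number of cultures behind each RNA is not stated. RNA of each was read on 1 Affymetrix array, so there was no replicate error, no test was run, and every difference below describes these 2 arrays. Members were all genes whose symbol has the family form of CYP, a number, a letter and a number, leaving out the sterol demethylase CYP51A1. Of the 18417 genes with a single-symbol probe, 47 were members, each read by 1 probe. CYP2A6, CYP2A7, CYP2A13, CYP3A7 and CYP21A2 shared their probes with other symbols and are given separately.

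Cytochrome P450s are haem enzymes that insert oxygen into small molecules. In liver they clear drugs and pollutants, turn cholesterol into bile acids, and oxidise steroids, fatty acids and fat-soluble vitamins. Those in the endoplasmic reticulum take electrons from the reductase POR, and those in mitochondria take them from ferredoxin. Many are controlled by receptors that bind their substrates, such as AHR for aromatic pollutants, CAR and PXR for drugs, FXR for bile acids and VDR for vitamin D. HepG2 cells are known to carry low amounts of many of the drug-metabolising members that adult liver expresses.

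Values are log2 intensities, and a difference is SiO2-NP minus control on that scale. A gene was placed above the level filter when the average of its values in both arrays was at least the median gene's, 7.26. This filter does not call detection, and transcripts that were absent could not be separated from dim ones. Of the 47 members, 10 passed it: CYP3A5, CYP7A1, CYP27A1, CYP19A1, CYP4F3, CYP4F11, CYP4V2, CYP24A1, CYP20A1 and CYP2W1. CYP1A1 and CYP2D6 lay just under it, with means of 7.25 and 7.23. The label of the cells was checked on liver markers. All 7 measured ones (ALB, AFP, APOA1, TTR, SERPINA1, FGB and TF) passed the filter, with control log2 intensities from 11.0 to 13.5. Of the markers of other cell types, 1 of 5 for fibroblasts (COL1A1), 0 of 3 for leukocytes and 0 of 3 for endothelium passed. The 5 fibroblast markers differed by 0.01 to 0.25, the 3 leukocyte markers by 0.07 to 0.30 (the highest being CD3E) and the 3 endothelial markers by -0.13 to 0.08, and their part in the results was not tested.

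The family as a whole differed little between the arrays, and 1 member, the vitamin D-degrading enzyme CYP24A1, was past 1.5-fold, being lower in the exposed cells. No member was at least 1.5-fold higher, where 0.331% of all genes were, and 1 was at least 1.5-fold lower, where 0.369% were. The median difference over the 47 members was 0.02, against 0.01 over all genes, and their SD across members was 0.23 against 0.19 across all genes. Among genes above the filter alone, 0.141% were at least 1.5-fold higher and 0.25% lower, beside 0 and 1 of the 10 members. Over these 10 the median was 0.00, against -0.03 over the 9209 genes above it. Of the 47, 31 were above the control (52.3% of all genes were) and 16 below. The split was 21 to 26 after median centring, where 42.6% of all genes were above the control. It was 26 to 21 under quantile normalization, where 55.8% of all genes were. Once differences were centred by level (on a running median over genes of like intensity), it was 25 to 21, with CYP1A1 at 0. There, 49.9% of all genes were above the control. The 37 members under the filter had 26 above the control, where 64.3% of all genes under it were. The 10 members above the filter split 5 to 5, where 40.2% of all such genes were above the control. They split 2 to 8 when each array was centred on its median. The median difference of all such genes was then -0.07.

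A milder threshold of 1.2-fold, chosen after the values were seen, took in 9 members and left 38 between -0.25 and 0.22. The 5 higher ones were CYP4F2, CYP2D7, CYP2B6, CYP2C8 and CYP4A22, all under the level filter. They were 10.6% of the family, where 8.26% of all genes were that much higher, and 13.5% of the 37 members under the filter, where 13.5% of all genes under it were. The 4 lower ones were 8.51% of the family, against 6.47% of all genes. Of these, CYP4A11 and CYP4F12 lay under the filter and were 5.41% of the members there, against 5.41% of all genes there. CYP24A1 and CYP7A1 lay above it, as 2 of 10 members, where 7.53% of all genes above it were that much lower and 2.99% that much higher. At this threshold the dim members thus differed as often as dim genes in general did. The 2 lower members above the filter are too few for a share to be read. The central 95% of all genes under the filter ran from -0.36 to 0.44. CYP4F2 (0.57), CYP2D7 (0.51) and CYP2B6 (0.51) lay above that range, CYP4A11 (-0.45) below it and CYP4F12 (-0.36) at its lower edge.

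**Figure D1:**
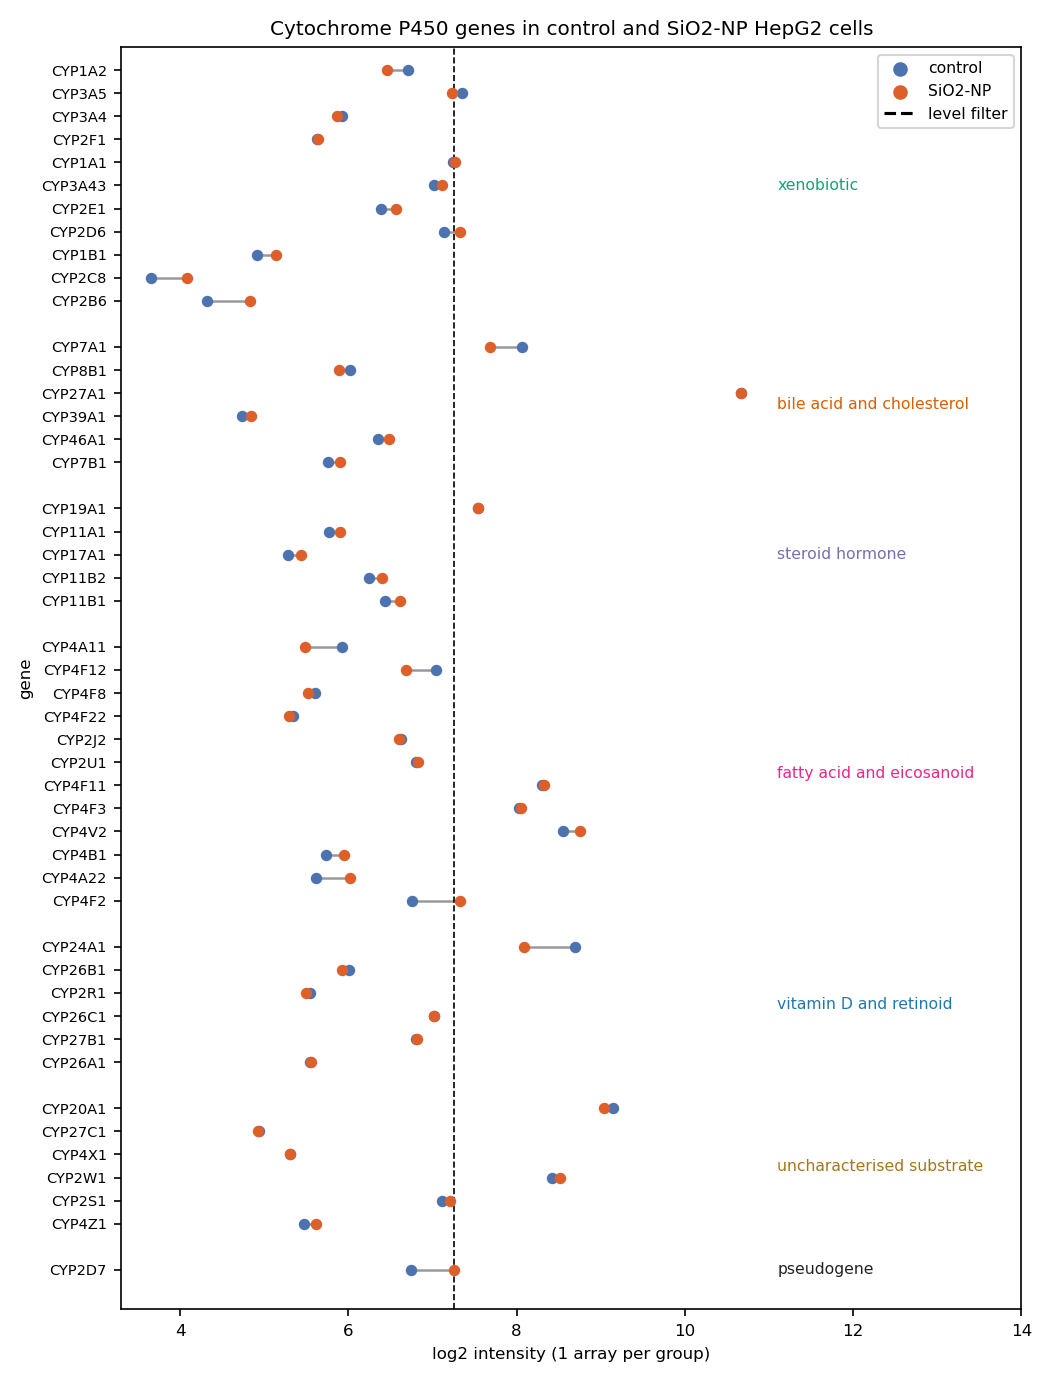
Log2 intensity (horizontal axis) of each of the 47 cytochrome P450 genes (vertical axis, grouped by role) in the control array (blue) and the SiO2-NP array (orange), with 1 array per group and no error. The dashed line is the level filter of 7.26, and most pairs of points lie close together, the widest gap being that of CYP24A1.

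**Figure D2:**
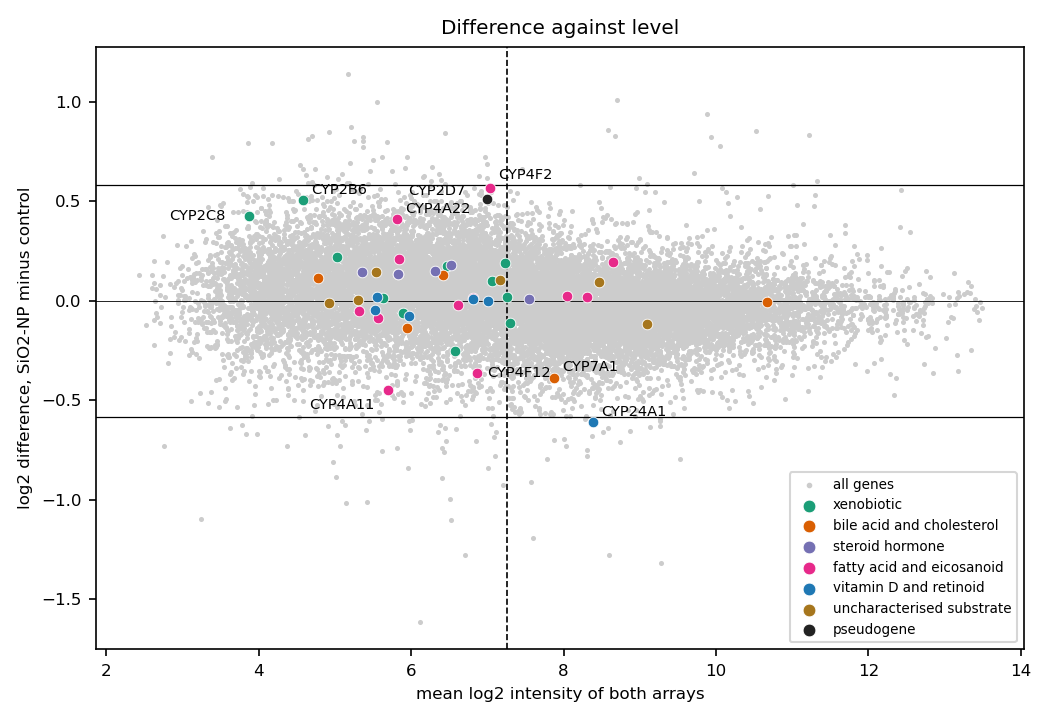
Log2 difference, SiO2-NP minus control (vertical axis), against the mean log2 intensity of both arrays (horizontal axis) for all 18417 genes (grey) and the 47 members (coloured by role). The vertical dashed line is the level filter, the outer horizontal lines mark 1.5-fold, and CYP24A1 is the member outside them.

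The upstream DNA of a pair of members is shown for reference: CYP1A1, the standard readout of the pollutant receptor AHR, and CYP4F2, the member with the largest positive difference. Each line is the 250 bases before the transcription start, 5′ to 3′ on the gene's strand, from RefSeq's GRCh38.p14. CYP1A1 lies at chr15:74725529-74725778 and CYP4F2 at chr19:15898075-15898324, both on the minus strand. Capitals mark matches, on either strand, to GCGTG (the core bound by AHR), to AGGTCA or GGGTCA (sequences bound by many nuclear receptors), or to TATAAA (the TATA box).
CYP1A1: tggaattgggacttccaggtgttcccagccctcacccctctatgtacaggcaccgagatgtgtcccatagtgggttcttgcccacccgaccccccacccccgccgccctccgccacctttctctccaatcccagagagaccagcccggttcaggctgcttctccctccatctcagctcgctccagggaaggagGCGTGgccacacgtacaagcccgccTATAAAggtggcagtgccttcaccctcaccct
CYP4F2: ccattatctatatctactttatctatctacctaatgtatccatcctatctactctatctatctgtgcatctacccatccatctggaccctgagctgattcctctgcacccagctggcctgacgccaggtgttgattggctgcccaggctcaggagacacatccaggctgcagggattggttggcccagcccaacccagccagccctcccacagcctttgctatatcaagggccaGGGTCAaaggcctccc
In CYP1A1 the GCGTG match covered bases 57 to 53 before the start and the TATA box bases 32 to 27. In CYP4F2 the GGGTCA match covered bases 16 to 11 before the start. No matches overlapped in these windows. Of 35116 such windows in the RefSeq table, 32.2% held GCGTG, 12.1% AGGTCA, 12.1% GGGTCA and 10.7% TATAAA. Of the 32 members with a window there, 9, 10, 8 and 12 held the match in any of their windows. These counts are of genes and the shares are of windows, so they are not like for like. A match is a description of the letters and not of a bound site.

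Among the 11 measured members that mainly handle drugs and pollutants, the inducible enzymes that are the usual sign of AHR activation did not move together. CYP1A1, which oxidises polycyclic aromatic hydrocarbons, read 7.24 in control cells and 7.26 after SiO2-NP, a difference of 0.02. CYP1A2, which metabolises caffeine and aromatic amines, read 6.71 and 6.46, a difference of -0.25. CYP1B1, which oxidises oestradiol and procarcinogens, read 4.92 and 5.14, a difference of 0.22. So the 3 AHR-controlled members lay near 0, below it and above it, each within 1.2-fold and under the level filter. CYP1A2 was past 1.2-fold under the 3 other scalings, at -0.29, -0.29 and -0.32.

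The main drug-metabolising enzyme of adult liver, CYP3A4, read 5.93 in control cells and 5.86 after SiO2-NP. Its relative CYP3A5, the only drug-metabolising gene above the filter among the 47 members, read 7.35 and 7.24, a difference of -0.11. The minor form CYP3A43 read 7.01 and 7.11. CYP2E1, which oxidises ethanol and paracetamol, read 6.39 and 6.56. None of these 4 reached 1.2-fold. CYP2B6, which CAR and PXR control, read 4.32 and 4.83 and was 1.42-fold higher. CYP2C8, which metabolises paclitaxel, read 3.66 and 4.09 and was 1.35-fold higher. These larger differences were at intensities far under the filter, where 13.5% of all genes were at least 1.2-fold higher. The central 95% of all genes under the filter ran from -0.36 to 0.44, with CYP2B6 (0.51) outside that range and CYP2C8 (0.43) just inside it. The lung enzyme CYP2F1 differed by 0.01. Over the 11 genes the median was 0.10, with 8 above the control. Of the 11, 10 lay under the filter, where the median of all genes was 0.07 and 64.3% were above the control.

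The genes CYP2D6, which metabolises codeine and many other drugs, and CYP2D7, its neighbouring pseudogene, are nearly identical in sequence, so their probes may read each other's transcripts. CYP2D6 read 7.14 in control cells and 7.33 after SiO2-NP, a difference of 0.19, and CYP2D7 read 6.74 and 7.25, a difference of 0.51. A further probe assigned to CYP2D6 together with LOC101929829 read 7.02 and 7.59, a difference of 0.56. All 3 were higher after SiO2-NP, by 0.19 to 0.56, and which transcript they read could not be told. CYP3A7, the form of fetal liver, was read by 1 probe shared with the CYP3A7-CYP3A51P readthrough gene, at 8.04 and 8.19, a difference of 0.15. The pair of probes shared by CYP2A6, which clears nicotine, and its relatives CYP2A7 and CYP2A13 differed by -0.00 and 0.07.

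Among the 6 bile acid and cholesterol members, CYP7A1, the first enzyme of the classical route from cholesterol to bile acids, was lower after SiO2-NP and the others differed little. CYP7A1 read 8.06 in control cells and 7.68 after SiO2-NP, a difference of -0.39, or 1.31-fold lower. The central 95% of all genes above the level filter ran from -0.37 to 0.28. CYP7A1 thus lay just outside that range. CYP27A1, the mitochondrial enzyme that starts the alternative route, read 10.67 and 10.66. CYP8B1, which sets the share of cholic acid, read 6.02 and 5.89, a difference of -0.13. CYP8B1 lay under the filter and within 1.2-fold. The oxysterol hydroxylases CYP7B1, also of the alternative route, and CYP39A1 differed by 0.13 and 0.11, and CYP46A1, which removes cholesterol from the brain, by 0.13, all 3 under the filter. The group's median was 0.05, with 3 above the control and 3 below, where 52.3% of all genes were above.

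All 5 measured steroid hormone members were above the control by small amounts in the values as deposited, although CYP19A1 lay below it after median centring. Of these 5, 4 lay under the filter, where 64.3% of all genes were above the control. CYP11A1, which cuts the cholesterol side chain, read 5.77 in control cells and 5.90 after SiO2-NP, and CYP17A1, which leads towards androgens and cortisol, read 5.28 and 5.43. CYP11B1 and CYP11B2, the near-identical enzymes that finish cortisol and aldosterone, read 6.44 and 6.62, and 6.24 and 6.39. These 4 adrenal and gonadal genes under the filter differed by 0.14 to 0.18, where the median of all genes was 0.07. Centred by level, CYP11A1 and CYP17A1 differed by 0.05 and 0.07, and CYP11B2 and CYP11B1 by 0.09 and 0.11. CYP19A1, the aromatase that makes oestrogens, was above the filter and read 7.54 and 7.55, a difference of 0.01. The group's median was 0.15, and the probes shared by CYP21A2 and its pseudogene differed by 0.16 to 0.25. No member of the group was past 1.2-fold.

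The 12 fatty acid and eicosanoid members held the widest spread, with genes in both directions. CYP4F2, which oxidises the tails of arachidonic acid and of vitamins E and K, read 6.75 in control cells and 7.32 after SiO2-NP, a difference of 0.57, or 1.48-fold higher, just short of 1.5-fold. CYP4F12, a relative from the same gene cluster, read 7.05 and 6.68, or 1.29-fold lower. CYP4A11, a fatty acid hydroxylase controlled by PPARA, read 5.93 and 5.48, or 1.36-fold lower. CYP4A22, its near-identical neighbour, read 5.61 and 6.02, or 1.33-fold higher. The related pairs thus differed in opposite directions, all 4 under the level filter, and their probes may share sequence. The other measured genes of the CYP4F cluster differed by only -0.09 to 0.02.

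The 3 fatty acid members above the filter differed less. CYP4V2, a hydroxylase whose loss causes a retinal dystrophy, read 8.55 in control cells and 8.75 after SiO2-NP, a difference of 0.20. CYP4F3, which inactivates leukotriene, read 8.03 and 8.06, and CYP4F11 read 8.30 and 8.32, a difference of 0.02 in each. All 3 were above the control, with a median of 0.02, but CYP4F3 and CYP4F11 lay below it after median centring. The arachidonic acid epoxygenase CYP2J2 differed by -0.02, CYP2U1 by 0.02, CYP4B1 by 0.21, the skin ceramide enzyme CYP4F22 by -0.05 and CYP4F8 by -0.09. The median of the 12 was 0.02, with 7 above the control and 5 below, where 52.3% of all genes were above.

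Genes that lie next to each other on the chromosome mostly differed in both directions, with all members above the control in 1 of 5 neighbourhoods. Neighbourhoods were runs of at least 3 measured members whose starts lay within 500 kb of the next. The 6 genes of the CYP4F cluster split 3 above to 3 below, from -0.36 to 0.57. The CYP4A, CYP4B, CYP4X and CYP4Z run of 5 genes split 4 to 1, from -0.45 to 0.41. The 3 CYP3A genes ran from -0.11 to 0.10, and CYP11A1, CYP1A1 and CYP1A2 from -0.25 to 0.14. CYP2B6, CYP2F1 and CYP2S1 were all above the control, by 0.01 to 0.51, but CYP2F1 lay below it under the 3 other scalings.

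CYP24A1, which breaks down the vitamin D hormone and is a textbook target of VDR, gave the largest difference of the family in either direction. It read 8.69 in control cells and 8.08 after SiO2-NP, a difference of -0.61, or 1.53-fold lower. Of the 9209 genes above the filter, 0.25% were at least 1.5-fold lower. The value was 1.48-fold, short of the threshold, under quantile normalization and when centred by level, and 1.57-fold after median centring. CYP27B1, which makes the active vitamin D hormone, read 6.81 and 6.81, and CYP2R1, which makes its circulating precursor, read 5.55 and 5.50. The receptor VDR, under the filter, read 5.50 and 5.61. The enzymes that make the hormone thus differed by 0.05 or less on probes under the filter, beside the larger difference of the enzyme that degrades it. The retinoic acid-degrading enzymes CYP26A1, CYP26B1 and CYP26C1 differed by 0.02, -0.08 and 0.00.

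The remaining 6 members have less well known substrates, or in CYP27C1 act on retinol. CYP20A1, an orphan, was above the filter and read 9.15 in control cells and 9.04 after SiO2-NP, a difference of -0.11. CYP2W1, which is best known from colon tumours, read 8.42 and 8.52, a difference of 0.09. CYP2S1 differed by 0.10, CYP4Z1 by 0.14, CYP4X1 by 0.00 and CYP27C1 by -0.01. None of the 6 was past 1.2-fold, and their median was 0.05.

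**Figure D3:**
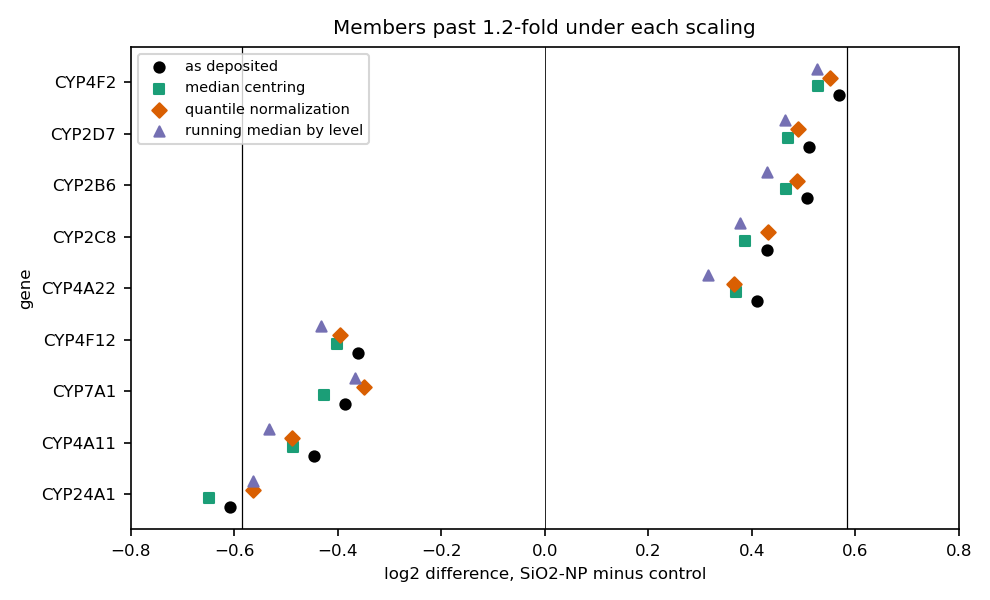
Log2 difference, SiO2-NP minus control (horizontal axis), of the 9 members past 1.2-fold (vertical axis), with the values as deposited and under 3 other scalings. The outer vertical lines mark 1.5-fold; every gene kept its side of 0, and CYP24A1 crossed the line from -0.61 to -0.56 under quantile normalization and when centred by level.

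The 9 members past 1.2-fold kept their direction under all 3 other scalings, as the plot of these genes shows. A total of 11 members changed sign under at least 1 scaling, the largest difference among them being 0.0248, that of CYP4F3. These included CYP1A1, CYP19A1, CYP27A1, CYP4F3 and CYP4F11, so their place above or below the control in the counts holds for the values as deposited.

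The genes listed as supplying P450s with electrons and haem differed by little. Of 7 measured electron transfer genes, all above the filter, none was past 1.2-fold, and their median was -0.02. POR, the reductase that feeds the P450s of the endoplasmic reticulum, read 11.14 in control cells and 11.12 after SiO2-NP. Cytochrome b5, an auxiliary donor, differed by 0.05 (CYB5A) and 0.15 (CYB5B), and its reductase CYB5R3 by 0.18. The mitochondrial ferredoxin FDX1 differed by -0.14, its relative FDX2 by -0.08 and the haem-binding PGRMC2 by -0.03. Whether FDX2 serves P450s was not tested. FDXR and PGRMC1 were listed too but had no value. The list split 3 above the control to 4 below, where 40.2% of all genes above the filter were above the control, and 5 to 2 under quantile normalization or centring by level.

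Of the 7 measured haem synthesis genes, 6 passed the filter and none was past 1.2-fold. ALAS1, the first and limiting enzyme in liver, read 8.77 in control cells and 8.92 after SiO2-NP, a difference of 0.15. The later enzymes ALAD, UROS, UROD, CPOX and FECH were each slightly below the control, by -0.05 to -0.12, and PPOX, under the filter, differed by 0.05. The first step and the later ones above the filter thus lay on opposite sides of 0. These 6 split 1 above the control to 5 below, where 40.2% of all genes above the filter were above it. The median of the 6 was -0.08 as deposited, beside -0.03 over all genes above the filter. It was -0.05 after quantile normalization, where UROS was no longer below the control, as also when centred by level.

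The receptors and cofactors that control P450 genes were also close to the control. AHR read 10.56 in control cells and 10.62 after SiO2-NP, and its partner ARNT 9.24 and 9.31. The AHR-inducible genes TIPARP, NQO1 and ALDH3A1 differed by -0.03, -0.02 and 0.07. These values, like that of CYP1A1, lay within 0.10 of 0. The AHR-controlled CYP1A2 and CYP1B1 lay outside that range, at -0.25 and 0.22, and AHR activity was not tested. Of the 8 measured nuclear receptors, 6 were above the control, with a median of 0.09 over the 8 and none past 1.2-fold, beside 52.3% and a median of 0.01 over all genes. Of the 5 that passed the filter 4 were above the control, with a median of 0.07, beside 40.2% and -0.03 over all genes that passed. NR0B2 (SHP), which represses CYP7A1 when bile acids are high, read 11.05 and 11.23, a difference of 0.18. NR5A2 (LRH-1), which binds the CYP7A1 promoter, read 8.37 and 8.54, a difference of 0.17. Both were above the control, each within 1.2-fold, while CYP7A1 was below it, and a link between them was not tested. NR1I3 (CAR) differed by 0.18, PPARA by 0.07, RXRB by 0.06, RXRA by -0.04 and NR1H3 (the sterol receptor LXR alpha) by -0.06.

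**Figure D4:**
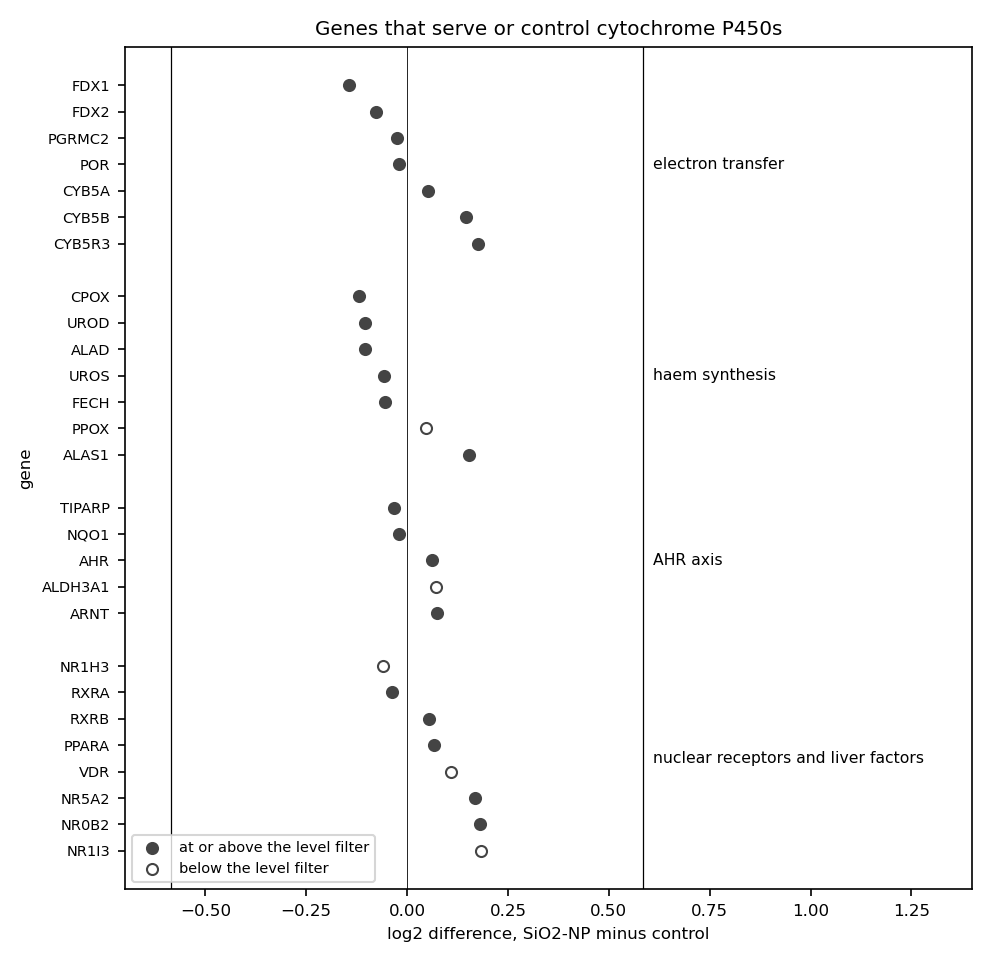
Log2 difference, SiO2-NP minus control (horizontal axis), of the measured electron transfer, haem synthesis, AHR axis and nuclear receptor genes (vertical axis). Filled points passed the level filter, open points did not, and all lie between -0.14 and 0.18, inside the outer lines that mark 1.5-fold.

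The P450s whose symbols lack the family form were read as well. Thromboxane synthase TBXAS1 read 6.28 in control cells and 6.68 after SiO2-NP, or 1.32-fold higher, and prostacyclin synthase PTGIS read 5.21 and 5.03, a difference of -0.17, both under the filter. CYP51A1, the sterol demethylase of cholesterol synthesis that was left out of the family here, read 10.71 and 11.30, a difference of 0.58. It was thus just short of 1.5-fold higher, as CYP4F2 was, and past it under quantile normalization (0.63) and when centred by level (0.61).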

How the data were processed

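The authors deposited 1 log2 intensity per probe (transcript cluster) and array, for 33297 probes. That the scale is log2 was inferred from the range, 2.08 to 14.4. The medians of the control and SiO2-NP arrays were near-equal, at 6.65 and 6.69. The submitters' processing notes name RMA and MAS5, without roles, versions or settings. RMA equalises arrays, so a shift common to most transcripts would be hidden. The supplied platform annotation, which can be old, gave 1 symbol to 19460 probes, several to 1754 and none to 12083. Single-symbol probes were averaged per gene, and all 47 member symbols were found in RefSeq. Arrays have no read depth, and their number limits the precision.

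Genes named were the members above the level filter, members past 1.5-fold, a set of well-known members at any level, and every measured partner or regulator. Other members were added after their values were seen. Members and lists were chosen with earlier results of these data known. Alternatives were no filter, a filter at the 75th percentile, 3 other scalings (median centring, quantile normalization, and centring by level on a running median over 501 genes), the brightest probe, several-symbol probes, and thresholds of 2-fold and, added later, 1.2-fold. The averaging of probes into genes was checked on simulated arrays, where known folds were added and read back. The scalings, role groups and promoter matches were not part of that check. Each of the 47 members had 1 probe, so neither the averaging nor the choice of the brightest probe could change a member's value. The scripts ran in Python 3.11.15 (pandas 2.3.3, NumPy 2.4.6, matplotlib 3.10.9).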

Additional observations from a re-analysis of the deposited data

How the results depend on the processing

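With 1 array per group no difference can be told from variation between cultures, and no replicate could be left out. No paired analysis was possible because there is a single array on each side. Every median judged was close to 0, and several changed sign. Over the members above the filter the family median of 0.00 ran from -0.06 (75th percentile filter) to 0.03 (quantile normalization), with -0.04 after median centring. The fatty acid median of 0.02 and the AHR axis median of 0.02 were -0.02 each after median centring, and the electron transfer median of -0.02 was 0.05 with the 75th percentile filter, 0.02 after quantile normalization and 0.01 with the running median. Those of haem synthesis and the nuclear receptors kept their sign under the alternatives that gave a value. Among the members above the filter, the count at least 1.5-fold higher stayed at 0 throughout, and the 1 lower member was lost with the 75th percentile filter, a 2-fold threshold, quantile normalization or the running median by level (0 in each), while 1.2-fold gave 2 lower (of the 4 lower among all 47). Members above and below the control, 5 and 5, became 31 and 16 without the filter, 0 and 2 with the 75th percentile filter (which left only CYP27A1 and CYP20A1) and 2 and 8 after median centring. Of all genes at any level, 52.3% were above the control as deposited and 42.6% after median centring. Partner genes above the control went from 3 to 5 for electron transfer, from 2 to 4 for the AHR axis and from 1 to 2 for haem synthesis after quantile normalization or the running median, the last also without the filter. Over 54 named genes and 5 alternatives the largest move of a difference was 0.19, for CYP2D6 with several-symbol probes. The planned pseudocounts were not run, since the table is on the log2 scale. Scanner backgrounds were not used here, so values near the bottom of the range have no signal-over-background measure.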
